A study of Mus musculus with 8 samples.

Results

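Interleukin receptor chains of B cells were followed on arrays of splenic B cells that lack the transcription factor Irf4. The 9 genes are Il4ra, Il21r, Il2ra, Il2rg, Il5ra, Il6ra, Il6st, Il9r and Il13ra1, and every probe set that the platform annotation pairs with 1 of them alone was taken. A probe set is a group of short probes on the array that are read together as 1 value. This gave 19 of the 45037 probe sets that are not array controls, for 8 of the 9 genes. Il2rg, the common gamma chain, has no probe set named here and was not analysed. The study compared mature B cells of 12-week-old Irf4 null mice (genotype irf4-/-, 4 arrays) with those of littermates with intact Irf4 (wild type, irf4+/+, 4 arrays). All mice were of strain C57BL/6, none of the labels gives a treatment or a sex, and other cells were removed from spleen cells with magnetic beads. The labels do not say whether each array came from 1 mouse, so the p-values measure the spread between arrays, which may be partly technical.

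Interleukins are secreted signals of immune cells, and their receptors are pairs or triplets of chains in the cell membrane. An alpha chain such as those encoded by Il6ra, Il9r or Il5ra binds 1 cytokine, and a shared chain such as gp130, the product of Il6st, or the common gamma chain completes the receptor. The chains carry no enzyme of their own: JAK kinases bound to them phosphorylate STAT factors, which then act on genes in the nucleus. In B cells, interleukin 4 and interleukin 21 steer class switching and plasma cell formation, interleukin 6 acts on plasma cells, and interleukin 5 acts on B-1 cells.

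Il9r, the chain that binds interleukin 9, was higher in Irf4 null B cells, and 1 probe set of Il6st was lower. At an adjusted p below 0.05 (limma, Benjamini-Hochberg over the 27022 probe sets that passed a filter on dim signals), 1 receptor probe set of the 17 tested was higher, 1 was lower and 15 did not pass. Over all probe sets tested, 2.01% were called higher and 1.51% lower, or 3.52% in either direction. With 1 call each way, the count says nothing of the receptors as a set. The median log2 fold change was -0.12 over the 17 probe sets and 0.0030 over all probe sets tested. The groups of 4 arrays did not overlap for 2 of the 17, the same Il9r and Il6st probe sets, while 10.8% of all probe sets tested showed no overlap (5.48% with Irf4 null higher and 5.33% lower). All fold changes are log2(signal + 16) in Irf4 null minus wild type, and the added 16 makes those of dim probe sets smaller.

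**Figure D1:**
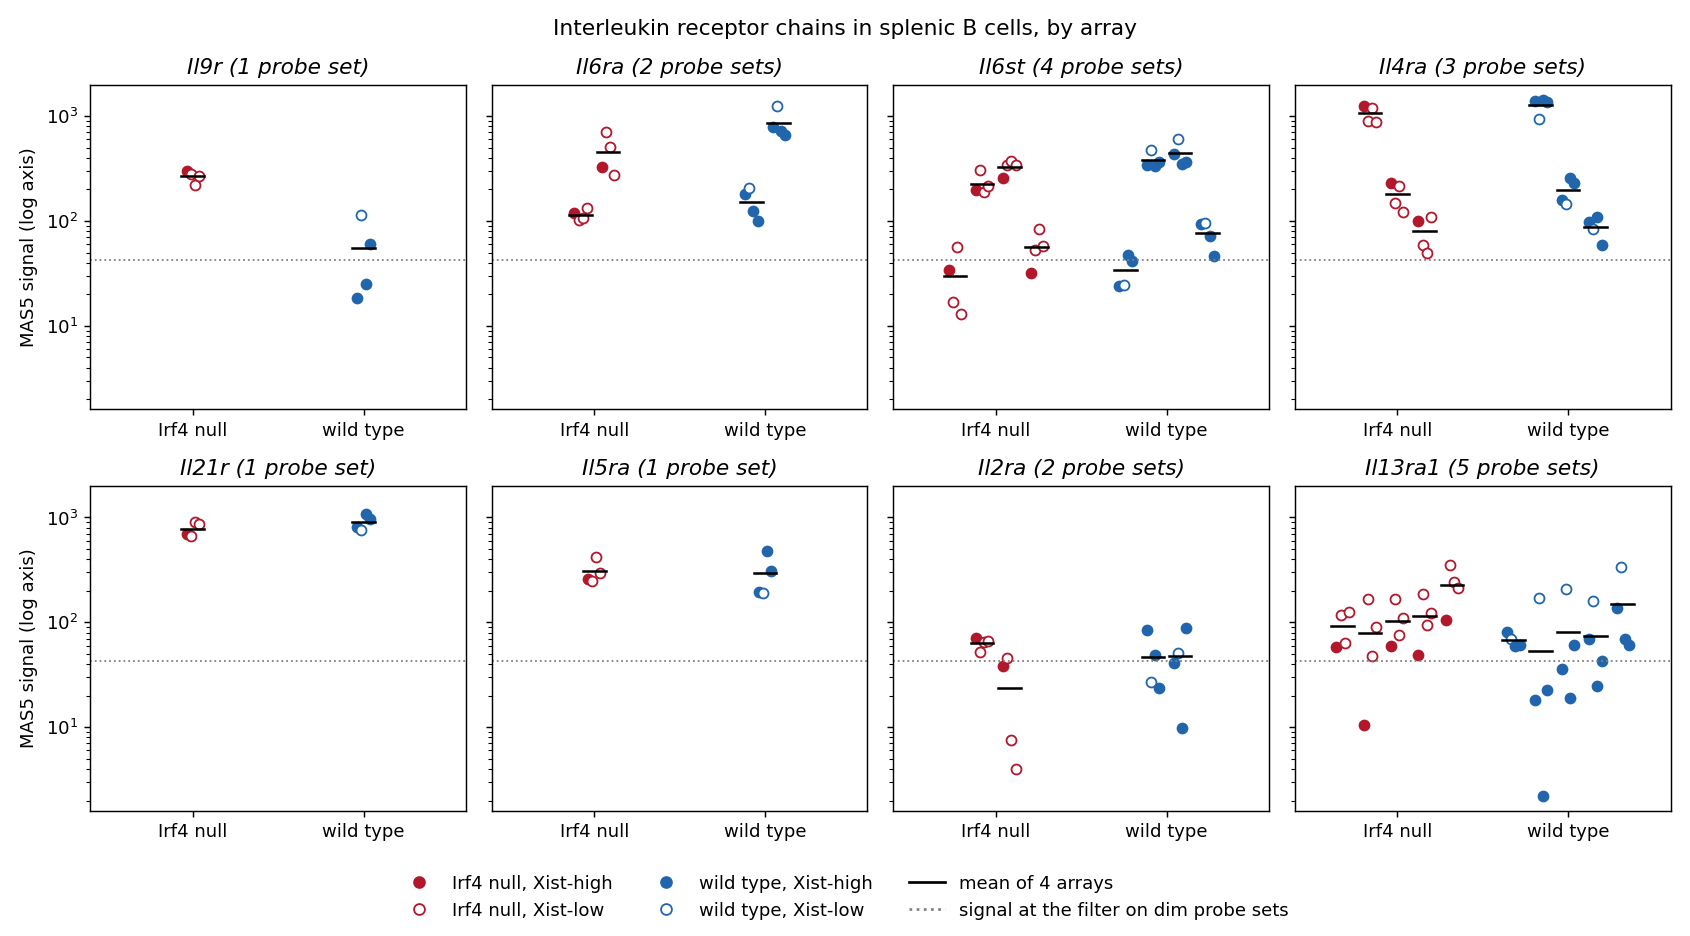
MAS5 signal (log axis) of the 19 probe sets of 8 receptor genes on each array, with 4 Irf4 null arrays left of 4 wild-type arrays. Each column of points is 1 probe set, bars are means of 4 arrays, open points are arrays with low Xist signal, and the dotted line is the signal of 42.9 that corresponds to the filter on dim probe sets. All 4 Irf4 null points of Il9r lie above the 4 wild-type points.

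Irf4 itself checked the labels. Its brighter probe set read 285, 259, 244 and 315 on Irf4 null arrays 1 to 4, against 2035, 1720, 1779 and 2341 on wild-type arrays 1 to 4, a log2 fold change of -2.76 ± 0.12 (SE; limma with an adjusted p of 4.6e-06). The dimmer Irf4 probe set read 7.30, 48.3, 29.7 and 60.7 on Irf4 null arrays 1 to 4, against 120, 82.2, 155 and 120 on wild-type arrays 1 to 4 (limma with an adjusted p of 0.0468). Neither probe set overlapped between genotypes. The sources used here do not give the deleted part of the gene, and the signal left in Irf4 null arrays says nothing of an intact transcript. B cell markers were bright in both genotypes: the summed signal of 8 of them was 78240 to 84400 on Irf4 null arrays and 73240 to 87630 on wild-type arrays. None of these 8 passed the test (limma; 1 had an unadjusted p below 0.05).

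Xist, a long noncoding RNA made from the inactive X chromosome in female cells, split the arrays into a low and a high set, each holding both genotypes. Some receptor probe sets did not overlap between these sets, as given below, and a part of Xist itself in this was not tested. Xist read 49.2 to 94.8 on Irf4 null arrays 2, 3 and 4 and wild-type array 2 (Xist-low), and 17119 to 19652 on Irf4 null array 1 and wild-type arrays 1, 3 and 4 (Xist-high). The mean of 66 markers of T cells, NK cells, myeloid cells, basophils, red cells and platelets was 8.54 to 9.08 (log2) on the 4 Xist-low arrays and 7.56 to 7.88 on the 4 Xist-high arrays. The summed signal of the 8 B cell markers was 73240 to 80400 on Xist-low arrays and 80040 to 87630 on Xist-high arrays. Receptor values are therefore also given from a fit with Xist-high as a term, in which 1 receptor probe set was higher and 3 were lower, against 1.41% and 0.947% of all probe sets (2.36% in either direction).

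Promoters of 3 genes are shown first: Il9r, which was higher, and Il6ra and Il6st, the 2 chains of the interleukin 6 receptor. Without the Xist-high term, 1 Il6st probe set was called lower and no Il6ra probe set passed. The sequences are from RefSeq, build GRCm38.p6, 250 bases before to 50 after the start of the gene, read 5′ to 3′ on the gene's strand. They lie at chr11:32200230-32200529 (minus strand), chr3:89913147-89913446 (minus strand) and chr13:112463820-112464119 (plus strand). Capitals mark the only match to the 4 motifs searched on both strands.
Il9r promoter: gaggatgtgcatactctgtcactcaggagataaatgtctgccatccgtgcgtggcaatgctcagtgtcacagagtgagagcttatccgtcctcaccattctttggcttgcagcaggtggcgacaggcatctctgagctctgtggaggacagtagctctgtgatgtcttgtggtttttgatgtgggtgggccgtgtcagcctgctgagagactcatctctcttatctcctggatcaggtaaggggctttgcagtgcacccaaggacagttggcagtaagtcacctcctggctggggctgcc
Il6ra promoter: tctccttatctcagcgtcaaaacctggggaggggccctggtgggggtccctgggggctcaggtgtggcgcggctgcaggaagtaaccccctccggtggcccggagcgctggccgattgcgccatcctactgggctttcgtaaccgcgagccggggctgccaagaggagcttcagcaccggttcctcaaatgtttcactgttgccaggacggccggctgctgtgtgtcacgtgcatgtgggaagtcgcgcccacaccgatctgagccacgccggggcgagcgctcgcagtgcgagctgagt
Il6st promoter: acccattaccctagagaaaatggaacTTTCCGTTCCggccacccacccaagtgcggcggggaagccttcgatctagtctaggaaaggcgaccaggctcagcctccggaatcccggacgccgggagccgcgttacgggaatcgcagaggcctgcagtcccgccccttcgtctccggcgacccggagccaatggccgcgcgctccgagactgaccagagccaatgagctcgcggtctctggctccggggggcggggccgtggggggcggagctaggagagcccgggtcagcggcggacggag

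The match in the Il6st promoter is an Ets-IRF composite element, a GGAA and a GAAA block with 2 bases of any kind between them. It lies on the strand opposite to the gene, starts 224 bases before the gene and reads TTTCCGTTCC in the printed direction. IRF4 is known to bind this kind of element together with the Ets factor PU.1. The element was present in 2.72% of the 32851 promoters in the same table. The ISRE-type motif, 2 GAAA blocks with 2 bases of any kind between them, in 3.44% of promoters, was in none of the 9 receptor promoters. The STAT motif TTCNNNGAA, in 8.3% of promoters, was in none of the 9 either, and the form with a spacer of 4 bases, in 6.95%, was in that of Il5ra alone. These matches are descriptions of the letters in a window of 300 bases, and no binding was measured.

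Il9r encodes the chain that binds interleukin 9, a cytokine of helper T cells and mast cells that acts through the common gamma chain. Its single probe set read 299, 283, 220 and 267 on Irf4 null arrays 1 to 4, against 18.4, 115, 25 and 60.9 on wild-type arrays 1 to 4. Every Irf4 null array was above every wild-type array, and the wild-type arrays varied far more among themselves in proportion to their mean. The means were 268 ± 34.2 in Irf4 null and 54.9 ± 44.4 in wild type (SD, n = 4 each), a log2 fold change of 2.20 ± 0.36 (SE; 95% interval 1.4 to 3.0; limma with an adjusted p of 0.0079). Wild-type arrays 1 and 3 were below the signal of 42.9 that corresponds to the filter, and the table has no detection calls, so the size of the fold is uncertain.

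The Il9r fold was also taken within each Xist class. Within the Xist-low arrays, 3 Irf4 null arrays at 220 to 283 stood against the single wild-type array at 115, a log2 fold change of 1.05 (limma with an adjusted p of 0.169). Within the Xist-high arrays, Irf4 null array 1 at 299 stood against 3 wild-type arrays at 18.4 to 60.9, a log2 fold change of 2.73 (adjusted p = 0.0357). The difference between these folds was 1.68 (95% interval 0.38 to 2.98) and did not pass (limma interaction, adjusted p = 0.561). With the Xist-high term over all 8 arrays the fold was 1.89 ± 0.38 (adjusted p = 0.0257), and with the mean of the 66 other-cell markers as a covariate it was 1.83 (adjusted p = 0.0314). Of 11 T cell markers tested, 10 had a fold above 0 and none passed (limma; 5 had an unadjusted p below 0.05), with a median log2 fold change of 0.95. The summed signal of 12 T cell markers was 6390 to 15620 in Irf4 null and 6921 to 8366 in wild type, and much of it came from Cd2, singled out after its values were seen, at 3681 to 5985 in Irf4 null and 4824 to 6376 in wild type. The summed signal of 8 basophil, mast cell and eosinophil markers was 700.5 to 1468 in Irf4 null and 697.5 to 2140 in wild type. The part of such cells in the Il9r values was not tested. None of these markers is listed at 0, and the table has no calls to say which were detected.

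The genes whose signals ran most like Il9r over the 8 arrays were Ift140 (Pearson r = 0.994), Sned1 (r = 0.99) and Asb2 (r = 0.984). Ift140, a part of the transport machinery of cilia, read 2796 to 2964 in Irf4 null and 1485 to 2265 in wild type. Asb2, a substrate receptor of a ubiquitin ligase, read 1491 to 2149 in Irf4 null and 264 to 916 in wild type. The arrays share the genotype difference and the Xist split, so these coefficients describe 8 points and carry no test.

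Il6st and Il6ra encode the shared signalling chain gp130 and the chain that binds interleukin 6. All 5 of their tested probe sets had lower mean log2 values in Irf4 null, and 1 of the 5 passed the test. The Il6st probe set that passed read 196, 307, 189 and 216 on Irf4 null arrays 1 to 4, against 345, 472, 337 and 363 on wild-type arrays 1 to 4. The groups did not overlap, and the highest array of each genotype was its array 2, both of them Xist-low. The log2 fold change was -0.71 ± 0.17 (SE; 95% interval -1.09 to -0.34; limma with an adjusted p of 0.0468), just past the threshold. It passed when Irf4 null array 2 was left out (adjusted p = 0.0213) and did not pass when any other single array was left out (adjusted p = 0.0513 to 0.124).

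The brightest Il6st probe set did not pass. It read 255, 342, 371 and 341 on Irf4 null arrays 1 to 4, against 441, 608, 353 and 365 on wild-type arrays 1 to 4, and Irf4 null array 3 overlapped the wild-type arrays. Its log2 fold change was -0.40 ± 0.18 (SE; adjusted p = 0.294), and -0.66 ± 0.13 with the Xist-high term (limma with an adjusted p of 0.0256). With that term the Il6st probe set described above was at -0.88 ± 0.17 (adjusted p = 0.0251). The dimmest tested probe set averaged 56.7 ± 21.7 in Irf4 null and 77.0 ± 22.6 in wild type (SD, n = 4 each) and did not pass in either fit (adjusted p = 0.562 and 0.327). A further probe set was below the filter, at 12.8 to 57.2 in Irf4 null and 24.0 to 47.1 in wild type, and was not tested.

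Il6ra was measured by a bright and a dim probe set. The bright one read 330, 701, 510 and 274 on Irf4 null arrays 1 to 4, against 796, 1243, 726 and 667 on wild-type arrays 1 to 4. Irf4 null array 2 alone lay inside the wild-type range, above wild-type array 4. Within each Xist class every Irf4 null array was below every wild-type array. Each class holds a single array of 1 genotype, and the share of all probe sets with this pattern was not counted. The log2 fold change was -0.94 ± 0.28 (SE; 95% interval -1.55 to -0.34) and did not pass (limma with an adjusted p of 0.0963), while it passed with the Xist-high term at -1.25 ± 0.26 (adjusted p = 0.0308). It stayed below 0 under all 23 alternatives, passed under 5 and did not pass under 18. It passed with the other-cell markers as a covariate (-1.39 ± 0.22, adjusted p = 0.00625) and without Irf4 null array 2 (-1.18, adjusted p = 0.0451), and did not pass without any of the other 7 arrays in turn (adjusted p = 0.108 to 0.234). It passed in the 4 Xist-high arrays (-1.10, adjusted p = 0.0151), where Irf4 null is a single array, and did not pass in the 4 Xist-low arrays (-1.40, adjusted p = 0.282), where wild type is a single array. The dim probe set averaged 115 ± 14.0 in Irf4 null and 153 ± 48.6 in wild type (SD, n = 4 each; adjusted p = 0.501).

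Of 6 tested markers of plasma cells, on which interleukin 6 acts, 3 (Jchain, Sdc1 and Igha) were called lower and 3 were not called. Among all genes tested, 1.7% were called lower. The summed signal of 7 plasma cell markers was 8850 to 10300 in Irf4 null and 15540 to 39750 in wild type. The part of these cells in the Il6ra and Il6st values was not tested. The genes nearest to the Il6st probe set in their pattern over the 8 arrays were Fhit (r = 0.957), Rmnd5a (r = 0.952) and Mtpn (r = 0.951), and none of these 3 passed the test (limma, adjusted p = 0.203, 0.225 and 0.0882).

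**Figure D2:**
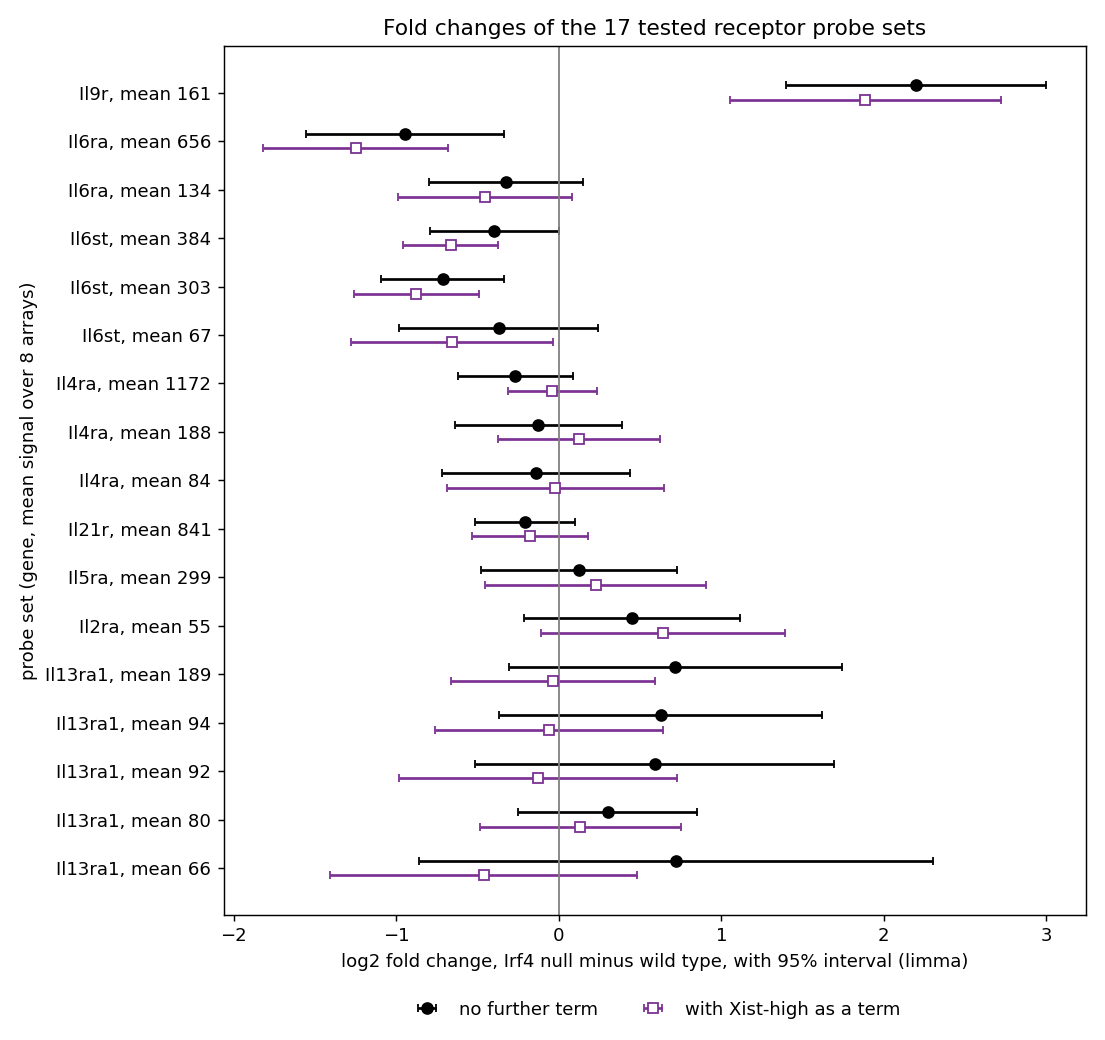
Log2 fold change of Irf4 null minus wild type for the 17 tested receptor probe sets, with 95% intervals from limma, without a further term (filled circles) and with Xist-high as a term (open squares). Il9r lies at 2.20 and 1.89, the tested Il6ra and Il6st probe sets lie below 0 in both fits, and 4 of the 5 Il13ra1 probe sets change sign.

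Il4ra and Il21r lie next to each other on chromosome 7, with 0 annotated genes between them in RefSeq, and neither passed the test. Il4ra encodes the chain that binds interleukin 4 and also serves interleukin 13. Its brightest probe set read 1257, 907, 1196 and 883 on Irf4 null arrays 1 to 4, against 1401, 936, 1436 and 1356 on wild-type arrays 1 to 4. The genotypes overlapped, and the 4 Xist-low arrays, at 883 to 1196, all lay below the 4 Xist-high arrays, at 1257 to 1436. How many of all probe sets separate the Xist classes was not counted. The log2 fold change was -0.27 ± 0.16 (SE; 95% interval -0.62 to 0.086; limma with an adjusted p of 0.445), and -0.038 ± 0.12 with the Xist-high term (adjusted p = 0.933). The 2 dimmer Il4ra probe sets were at -0.12 (adjusted p = 0.845) and -0.14 (adjusted p = 0.842).

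Il21r encodes the chain that binds interleukin 21, a product of follicular helper T cells. Its probe set read 692, 663, 903 and 862 on Irf4 null arrays 1 to 4, against 815, 752, 1071 and 975 on wild-type arrays 1 to 4. The groups overlapped, with Irf4 null arrays 3 and 4 above wild-type arrays 1 and 2. The log2 fold change was -0.21 ± 0.14 (SE; limma with an adjusted p of 0.512), with a 95% interval of -0.51 to 0.10. A change of 1 log2 unit in either direction lies outside the 95% intervals of Il21r and of the 3 Il4ra probe sets.

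Il5ra, the chain that binds interleukin 5 and a surface marker of B-1 cells, had 1 probe set, which read 262, 248, 419 and 292 on Irf4 null arrays 1 to 4, against 196, 190, 481 and 306 on wild-type arrays 1 to 4. Array 3 was the highest in both genotypes, and the wild-type range enclosed the Irf4 null range. Its log2 fold change was 0.12 ± 0.27 (SE; 95% interval -0.48 to 0.73; limma with an adjusted p of 0.871). Of 6 other genes associated with B-1 cells, Plscr1 was higher and 5 were not called, against 2.67% called higher among all genes tested. The median of the B-1 list was 0.82 (log2). Summed over 7 such genes, the signal was 5805 to 8054 in Irf4 null and 2730 to 7737 in wild type.

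Il2ra, the chain that gives the interleukin 2 receptor its high affinity and a marker of regulatory T cells, was dim. The tested probe set read 71.4, 52.5, 65.2 and 65.8 on Irf4 null arrays 1 to 4, against 85.4, 27.1, 49.3 and 23.8 on wild-type arrays 1 to 4. The wild-type arrays spread on both sides of the Irf4 null arrays, and the log2 fold change was 0.45 ± 0.30 (SE; limma with an adjusted p of 0.502). The other probe set, at 4.0 to 45.3 in Irf4 null and 9.75 to 89.3 in wild type, was below the filter and was not tested. Among markers of regulatory T cells none of 4 tested genes passed (limma; 2 had an unadjusted p below 0.05), and the summed signal of 5 was 1122 to 1640 in Irf4 null and 870 to 1290 in wild type. Their part in the Il2ra signal was not tested.

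Il13ra1 encodes a chain that pairs with the Il4ra product to bind interleukin 4 and interleukin 13, is known from monocytes and macrophages, and lies on the X chromosome. None of its 5 probe sets passed (limma, adjusted p = 0.488 to 0.677; 0 had an unadjusted p below 0.05), with log2 fold changes of 0.30 to 0.72. The brightest read 105, 350, 243 and 212 on Irf4 null arrays 1 to 4, against 138, 335, 69.8 and 61.3 on wild-type arrays 1 to 4. The genotypes overlapped, whereas the 4 Xist-low arrays, at 212 to 350, all lay above the 4 Xist-high arrays, at 61.3 to 138. The same held for 3 of the other probe sets, at 95 to 188, 75.2 to 206 and 48.1 to 170 on Xist-low arrays and 24.9 to 69.7, 19.0 to 61.1 and 2.21 to 22.6 on Xist-high arrays. The fifth, at 63.9 to 125 on Xist-low arrays and 58.6 to 81.2 on Xist-high arrays, overlapped. The share of all probe sets that separate the Xist classes was not counted, so this separation is not shown to be particular to Il13ra1. With the Xist-high term the brightest probe set was at -0.037 ± 0.29 (adjusted p = 0.975).

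Markers of several other cell types, though not of all, ran with the same split of the arrays. Summed T cell markers overlapped between the classes, at 6390 to 15620 on Xist-low arrays and 6921 to 8366 on Xist-high arrays. So did summed erythroid and platelet markers, at 3870 to 7375 and 2752 to 5815. The summed signal of 15 monocyte, macrophage and dendritic cell markers was 30280 to 38780 on the 4 Xist-low arrays and 11740 to 16530 on the 4 Xist-high arrays, and that of 11 neutrophil markers was 21310 to 77800 and 5946 to 11230. By genotype the sum of the monocyte, macrophage and dendritic cell markers was 16530 to 33930 in Irf4 null and 11740 to 38780 in wild type. All 15 and all 11 passed the filter on dim signals, and none passed the test between genotypes (limma; 3 and 0 had an unadjusted p below 0.05). Whether Il13ra1 signal came from such cells was not tested, and in RNA of whole preparations fewer cells of a type and less RNA per cell cannot be told apart.

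**Figure D3:**
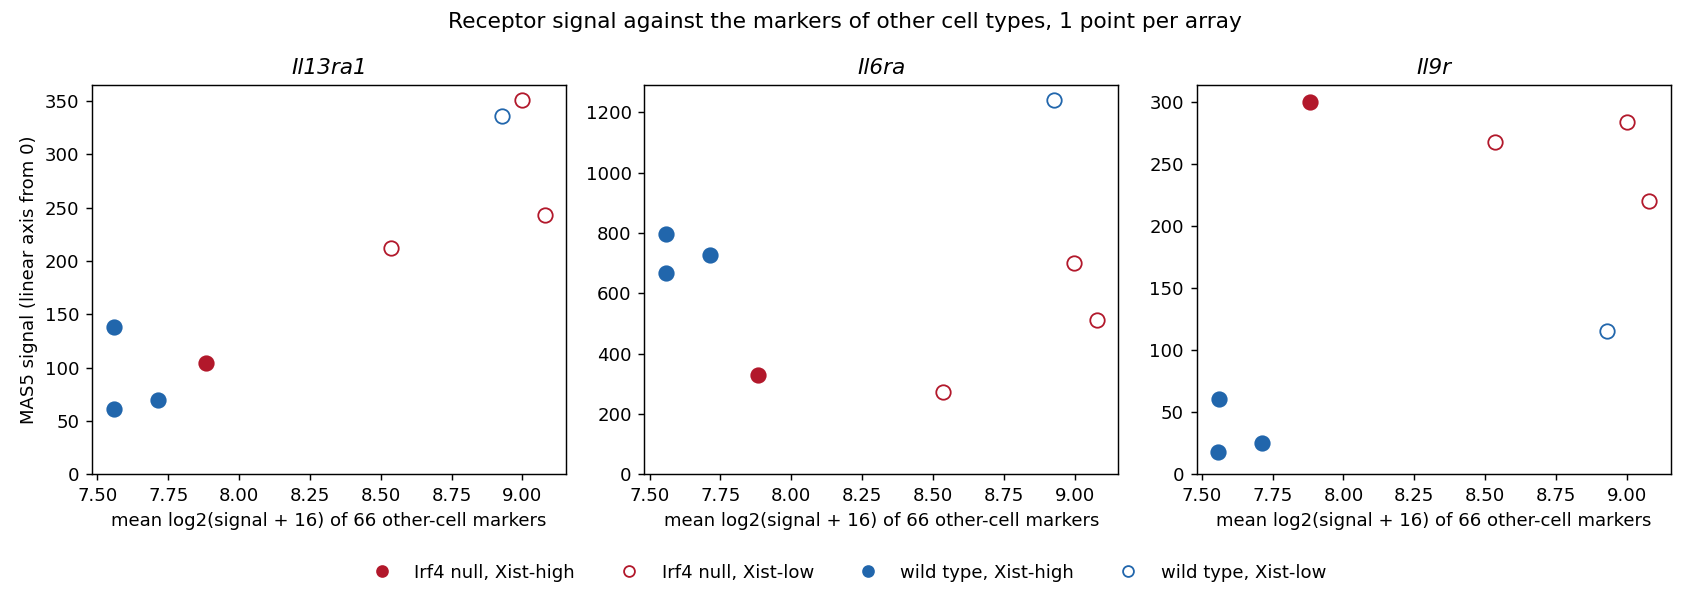
MAS5 signal of the brightest probe sets of Il13ra1, Il6ra and Il9r (linear axes) against the mean log2(signal + 16) of 66 markers of other cell types, with 1 point per array. The 4 Xist-low arrays (open points) lie at 8.54 to 9.08 and the 4 Xist-high arrays at 7.56 to 7.88, and Il13ra1 separates the same 2 sets of arrays, whereas Il9r separates the genotypes.

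The remaining marker lists give the makeup of the preparations. Of 8 NK cell markers all had a fold above 0, Prf1 was higher and 7 did not pass. At an unadjusted p below 0.05 there were 7 (limma), the median log2 fold change was 1.07, and 2 were called with the Xist-high term, with a summed signal of 4165 to 13360 in Irf4 null and 2377 to 7715 in wild type. In the other lists, 1 of 6 erythroid and platelet markers, Ppbp, was higher, and of 7 basophil, mast cell and eosinophil markers none passed (limma, with 0 at an unadjusted p below 0.05). Among B cell subsets, 5 of 9 marginal zone markers (Cd1d1, S1pr3, Dtx1, Plxnd1 and Myof) were higher and none lower. The follicular list had 1 lower gene of 5, Fcer2a. Among all 11802 genes tested, 2.67% were called higher and 1.7% lower. The lists were chosen with earlier results of these data known, so these counts are descriptions. The share of each subset in the receptor values was not tested.

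The wider pathway was read at 1 probe set per gene. Of 83 genes in 6 lists around the receptors, 5 were higher and 2 lower, or 8.43%, against 2.67% higher, 1.7% lower and 4.37% in either direction among all 11802 genes tested. The median log2 fold change was 0.12 over the 83 genes and 0.025 over all genes. The lists were chosen with earlier results of these data known, so these shares are descriptions.

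Cytokines were mostly dim. Of 16 measured cytokines listed around the receptors, 11 were below the filter, among them Il4, Il5, Il6, Il9, Il13 and Il21. Not all of the 16 bind a receptor studied here (Tslp does not). Of the 5 tested, 1 was higher. Ebi3, the subunit of interleukin 27 and interleukin 35 that resembles a soluble receptor chain, read 833, 916, 833 and 768 on Irf4 null arrays 1 to 4, against 333, 444, 382 and 341 on wild-type arrays 1 to 4. Its groups lay far apart, with a log2 fold change of 1.13 ± 0.11 (SE; limma with an adjusted p of 0.000421). Interleukin 27 signals through gp130 together with its own alpha chain. Il27, which encodes the other subunit of interleukin 27, was not among the genes measured. Il27ra, the gene of the alpha chain, named after its values were seen, was at 0.16 (limma with an adjusted p of 0.605).

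Of 27 other cytokine receptor chains none passed (limma; 8 had an unadjusted p below 0.05), with a median log2 fold change of 0.26. Il17ra had the smallest p, at 3237 ± 405 in Irf4 null and 4067 ± 326 in wild type (SD, n = 4 each; log2 fold change -0.33, adjusted p = 0.109). Of 10 JAK kinases and STAT factors none passed (limma; 3 had an unadjusted p below 0.05), with a median of -0.0090. Jak1, a kinase that binds gp130 and the Il4ra chain, was at 6938 ± 592 in Irf4 null and 8165 ± 383 in wild type (log2 fold change -0.24, adjusted p = 0.124). Of 9 adaptors none passed (limma; 2 had an unadjusted p below 0.05), with a median of 0.068, and Irs2, an adaptor of the interleukin 4 receptor, was at -0.37 (adjusted p = 0.13).

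Regulators that act on the receptor chains included 3 higher genes of 19 tested, with none lower and a median log2 fold change of 0.12. Socs3, which binds gp130 and blocks its kinases, read 1838, 1915, 1792 and 1601 on Irf4 null arrays 1 to 4, against 1153, 1396, 1228 and 971 on wild-type arrays 1 to 4, a log2 fold change of 0.59 ± 0.11 (SE; limma with an adjusted p of 0.016). With the Xist-high term Socs3 was at 0.53 and did not pass (adjusted p = 0.0546). Ptpn11, which encodes the phosphatase SHP-2 that docks on gp130 and is also known to promote MAP kinase signalling, averaged 3494 ± 250 in Irf4 null and 2378 ± 118 in wild type (SD, n = 4 each; adjusted p = 0.00263). Ptpn1, which encodes a phosphatase of JAK kinases, averaged 5671 ± 355 in Irf4 null and 4178 ± 367 in wild type (SD, n = 4 each; adjusted p = 0.013).

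Genes known to respond to STAT6, STAT3 or STAT5 moved both ways, with 2 of 17 higher, 2 lower, 13 not called and a median log2 fold change of 0.33. Fcer2a, the low-affinity IgE receptor that interleukin 4 induces in B cells, averaged 3293 ± 907 in Irf4 null and 7240 ± 715 in wild type (SD, n = 4 each; log2 fold change -1.17 ± 0.17, adjusted p = 0.003). Bcl6, a repressor needed by germinal centre B cells, was at -0.78 (adjusted p = 0.00028). Ccl22, a chemokine that attracts T cells, read 217, 219, 168 and 212 on Irf4 null arrays 1 to 4, against 47.2, 57.3, 52.1 and 60.8 on wild-type arrays 1 to 4, a log2 fold change of 1.64 ± 0.16 (limma with an adjusted p of 0.000378). Socs3 is the other higher gene of this list and is counted in both. Members of 1 list thus differed in direction, with Fcer2a and Bcl6 lower and Ccl22 and Socs3 higher in Irf4 null.

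**Figure D4:**
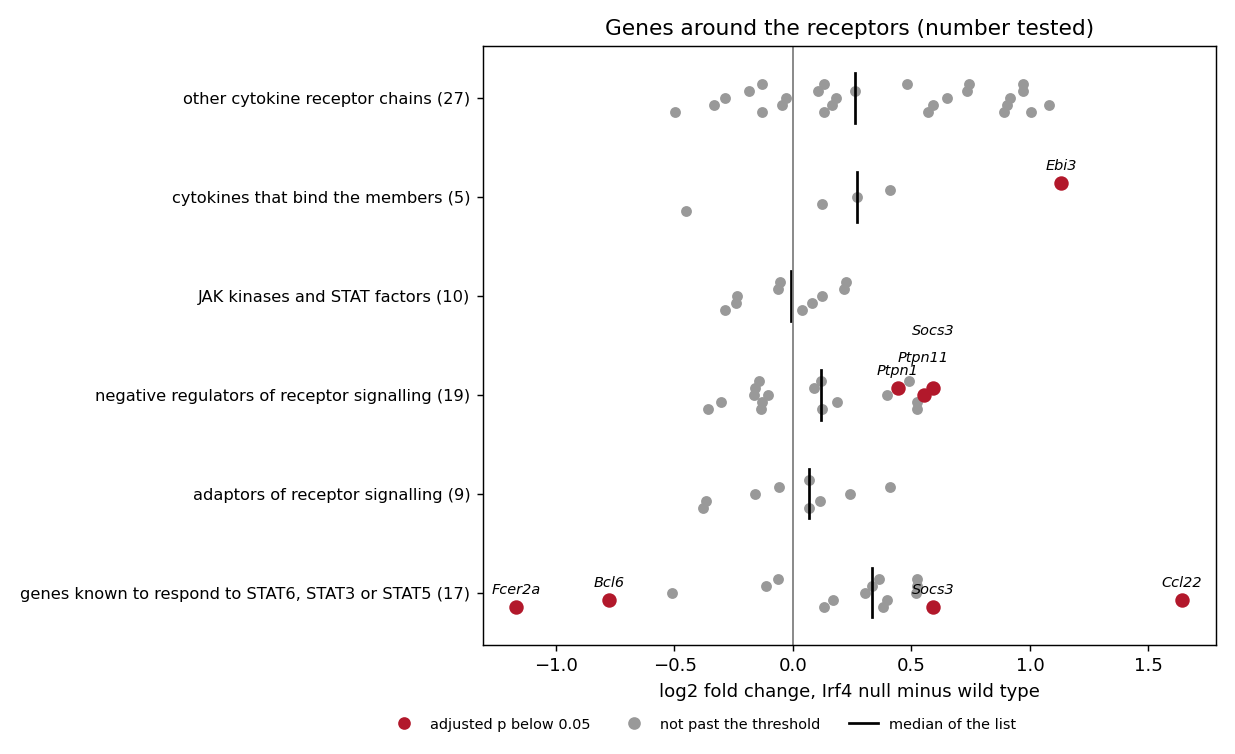
Log2 fold change of Irf4 null minus wild type for each tested gene of 6 lists around the receptors, with the median of each list as a bar and genes past an adjusted p of 0.05 named. Ebi3 at 1.13, Ccl22 at 1.64 and Fcer2a at -1.17 lie farthest from 0 among the named genes, and none of the other cytokine receptor chains, JAK kinases, STAT factors or adaptors passed.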

How the data were processed

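Splenic B cell RNA (6 µg of total RNA per array, per the labels' protocols) was hybridised to 8 Affymetrix arrays. The deposited values are intensities on a linear scale made by the authors with the MAS5 algorithm (per the submitters' processing notes); its version and scaling target are not stated in the labels. The trimmed mean signal (2% left out at each end) was 500.003 on every array, so no further normalization was applied. Correlations between arrays were 0.96 to 0.982. Precision is limited by the number of arrays.

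Names of probe sets come from the platform annotation (34958 with 1 symbol, 932 with several, 9211 unnamed here), and 34754 symbols were updated through gene identifiers to RefSeq GRCm38.p6. Control probe sets (64) and the lowest 40% of probe sets by mean log2(signal + 16) were dropped, with the limit at a mean of 5.88 (a signal of 42.9). After that 27022 remained. The genotypes were compared by limma 3.58.1 (R 4.3.3; lmFit, and eBayes with a variance trend), which was tested on simulated data. Gene-level results use the probe set with the highest mean. The replicate numbers were not treated as pairs: deviations of same-numbered arrays correlated at 0.237, 0.277, -0.0301 and -0.0807. The Xist-high term marks arrays with a Xist signal over 1000.

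Il2rg was not analysed here. The members and lists were chosen with earlier results of these data known. Named genes are Irf4, all receptors, up to 3 called genes per pathway list with the smallest adjusted p (or 1 with the smallest p where none was called) and the 3 genes most correlated with each called receptor probe set. Subset and cell type markers were named where a count was 5 or fewer, after their values were seen. Alternatives were the pseudocount, the filter, normalization, the variance model, array weights, a replicate block, leaving out each array, the Xist-high term, each Xist class alone, a covariate of other-cell markers, and averaging a gene's probe sets.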

Additional observations from a re-analysis of the deposited data

Results flagged for a closer look

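Each of the 19 receptor probe sets was checked for 1 array far from the other 3 of its genotype, 38 groups in all, and chance alone would mark about 1 in 20. Here 1 group was marked. The brightest Il4ra probe set read 936 on wild-type array 2, against 1356 to 1436 on the other wild-type arrays, and the gap took up 0.865 of the range of the group (log2 scale), above Dixon's 95% critical value for 4 samples. That array is the Xist-low array of the wild type.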

How the results depend on the processing

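Irf4 stayed lower and past the threshold under all 23 alternatives (log2 fold change -2.83 to -2.12; limma, adjusted p = 1.1e-06 to 0.00552). Il9r stayed higher under all 23 and lost its call under 1, the Xist-low arrays alone (1.05, adjusted p = 0.169), so no receptor was called higher there (0; limma, 1 at an unadjusted p below 0.05). Its fold ranged from that 1.05 to 2.73 in the Xist-high arrays, and from 1.92 to 2.56 with an array left out. The Il6st call rests on the settings: 11 of 22 alternatives lost it. The receptor probe sets called lower, 1 in the report, were 0 with no filter (3 at an unadjusted p below 0.05), 0 without a variance trend (2), 0 within Xist-low arrays (4) and 0 after averaging a gene's probe sets (2). They were 3 with the Xist-high term, 3 with the other-cell covariate, 2 with the replicate block, and 0 to 2 with an array left out, with 2 only without Irf4 null array 2. The replicate block added the bright Il6ra probe set (adjusted p = 0.00924); the numbers are not shown to pair the samples.

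Pathway genes called higher, 5 in the report, were 3 without a variance trend, 8 with array weights, 8 with the replicate block, 2 in the Xist-high arrays, 0 in the Xist-low arrays (7 at an unadjusted p below 0.05; limma), 3 with the other-cell covariate and 4 to 10 with an array left out, with 10 without wild-type array 2. Those called lower, 2 in the report, were 1 in the Xist-low arrays and 2 to 3 with an array left out. Signs turned for receptors that passed in no setting; the cause was not tested. With the Xist-high term the second Il4ra probe set was at 0.13 and Il13ra1 at -0.46, -0.13, -0.059 and -0.037 in 4 probe sets. In the Xist-high arrays Il4ra was at 0.12 and 0.19, Il5ra at -0.22 and Il13ra1 at -0.15 and -0.13. In the Xist-low arrays Il4ra was at 0.075 and 0.13, Il21r at 0.092 and Il13ra1 at -0.79, -0.79, -0.26 and -0.34. With the other-cell covariate Il4ra was at 0.072 and 0.044 and Il13ra1 at -0.51, -0.19, -0.094 and -0.14. With an array left out, 2 Il4ra probe sets ranged from -0.25 to 0.027 and from -0.29 to 0.023, and Il5ra from -0.039 to 0.38. Each Xist class holds 1 array of 1 genotype, which is assumed to vary like the others. Without detection calls, signals near 42.9 cannot be told from background.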
